A study of Mus musculus with 2 samples.

Results

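The genes described here encode the machinery that builds peroxisomes and the enzymes that handle lipids inside them. They were chosen by symbol, and not by their change: every gene whose symbol is Pex followed by a number with or without a letter, and 22 listed genes of peroxisomal lipid enzymes, transporters, catalase and membrane proteins. The rule found 38 genes, 16 Pex genes (peroxins) and all 22 listed genes, among the 22882 gene symbols of each library. Heart RNA came from 5 Med1fl/fl mice (control) and from 5 csMed1-/- mice, both on the C57BL6/J background, of mixed sex and 23 days old. Both genotypes carry loxP sites in Med1, which encodes a subunit of the Mediator complex of RNA polymerase II transcription, and only csMed1-/- mice also carry a Cre transgene under the alpha-myosin heavy chain promoter, which deletes Med1 in cardiomyocytes and leaves it in the other cells of the heart. The RNA of each genotype was combined into a single library, so there are no replicates, no test between genotypes was made, and every value below is that of 1 library.

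Peroxisomes are single-membrane organelles that shorten very long chain and branched fatty acids, start the synthesis of ether lipids (plasmalogens, which are abundant in heart membranes) and break down the hydrogen peroxide that their oxidases release. Their enzymes are made in the cytosol, recognised by the receptors Pex5 and Pex7 and carried across a membrane pore, after which the receptors are pulled back out by an ATPase complex. In rodent liver many of these enzymes, and the peroxin Pex11a, are induced through peroxisome proliferator-activated receptor alpha (PPARα), a nuclear receptor for which Med1 acts as a coactivator. The genotypes were compared to find genes whose expression differs in heart without cardiomyocyte Med1, and the peroxins are set beside the PPAR-regulated enzymes.

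Values are FPKM, which are scaled to transcript length and library size, so levels can be set side by side between genes. Med1 itself had 3.38 FPKM in the control pool and 0.412 FPKM in the csMed1-/- pool, a ratio of 0.122. Ratios are csMed1-/- over control, and log2 ratios below 0 are lower in csMed1-/- heart. A gene entered the counts when neither pool listed it at 0 and its higher value reached 1 FPKM, which kept 34 of the 38 genes and 10489 genes in all. Where a pair of values is given for a gene, control comes first. Lower and higher describe these 2 libraries alone, and larger differences were counted past 2-fold. The absolute depth is unknown. Judged by steps among the lowest values, csMed1-/- heart was sequenced 1.39 times as deeply as control heart, provided that only mapped fragments set the scale.

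The peroxisomal genes were on balance lower in csMed1-/- heart, with a lower median for the enzymes than for the peroxins. From textbook knowledge, 13 of the 22 listed genes were grouped as PPAR-regulated enzymes and the other 9 as other enzymes. Of the 34 genes kept, 12 (35.3%) were lower by more than 2-fold, against 18.0% of all genes kept, and none was higher by more than 2-fold, against 13.6% of all genes. In either direction 31.5% of all genes differed by more than 2-fold. At any size of difference 24 of 34 (70.6%) were lower, against 53.2% of all genes. The median log2 ratio was -0.87 over the 12 PPAR-regulated enzymes kept and -1.11 over the 7 other enzymes kept. With no minimum on FPKM the median was -0.91 for all 13 PPAR-regulated enzymes and -0.43 for all 9 other enzymes. The median was -0.0046 over the 15 peroxins kept, and -0.07 over all genes. Past 2-fold, 4 of 12 PPAR-regulated enzymes, 4 of 7 other enzymes and 4 of 15 peroxins were lower. The difference between the median of the PPAR-regulated enzymes and that of the peroxins was -0.87 on the log2 scale, and no test of it was made. It stayed between -0.94 and -0.76 under the alternatives tried, although scalings that shift all genes equally cannot alter a difference of medians. In whole-heart RNA, fewer cardiomyocytes and less RNA of a gene per cardiomyocyte cannot be told apart. The study reports enlarged, poorly contracting hearts in csMed1-/- mice of about the age sampled. Effects of that disease state and of Med1 loss itself cannot be told apart in these libraries either.

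**Figure D1:**
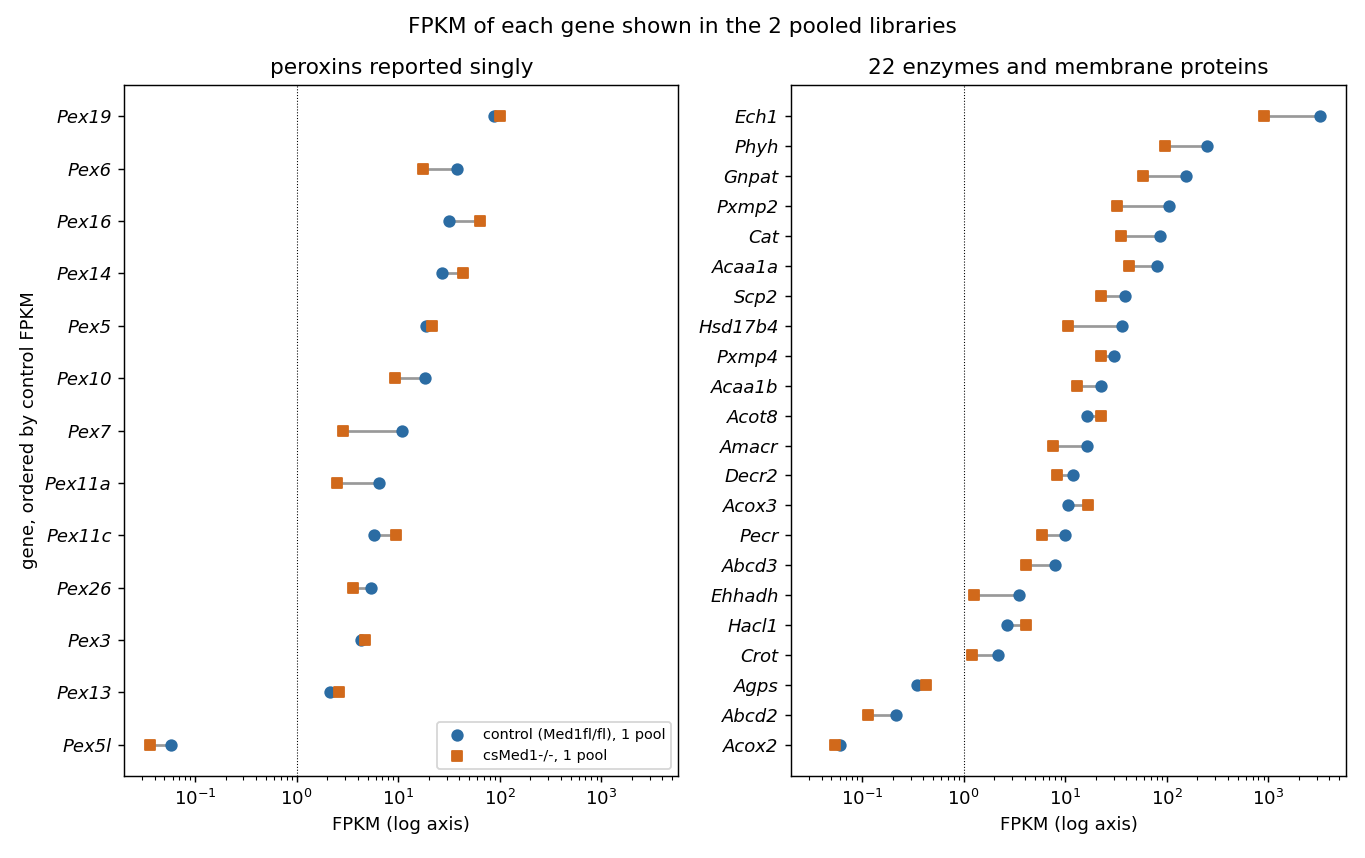
FPKM of the peroxins reported singly (left) and the 22 enzymes and membrane proteins (right) on a log axis, with circles for the control pool and squares for the csMed1-/- pool joined by a line, and a dotted line at 1 FPKM. Among the enzymes most squares lie to the left of their circles, for example Ech1 at 3256 and 910.4 FPKM and Ehhadh at 3.49 and 1.27 FPKM, whereas the peroxins go both ways.

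**Figure D2:**
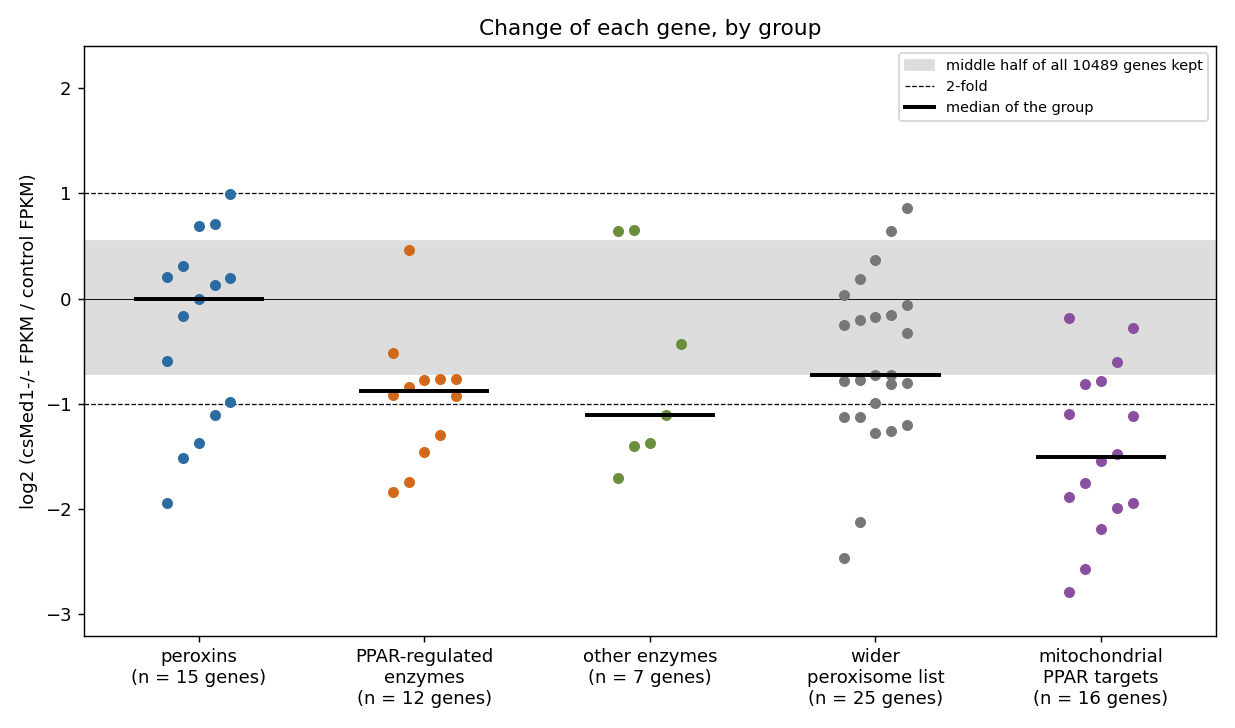
Log2 ratio of csMed1-/- to control FPKM for each gene kept, by group, with the group median as a black bar, dashed lines at 2-fold and the middle of the distribution of all 10489 genes (quartiles -0.72 and 0.55) in grey. The peroxins spread on both sides of 0 around a median of -0.0046, the PPAR-regulated enzymes lie around -0.87 with Acot8 alone above 0, and all 16 mitochondrial PPAR targets lie below 0.

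The first step of peroxisomal beta-oxidation, in which acyl-CoA enters the organelle and is oxidised, held no gene past 2-fold. Abcd3, the main acyl-CoA transporter of the peroxisomal membrane, had 7.87 FPKM in the control pool and 4.14 FPKM in the csMed1-/- pool (log2 ratio -0.93). Its relative Abcd2 stood at 0.216 and 0.114 FPKM, under the minimum for a ratio. Among the oxidases, Acox3 (branched-chain acyl-CoA oxidase) was higher but within 2-fold, at 10.7 and 16.7 FPKM (0.65), and Acox2 (bile acid intermediate oxidase) was near the bottom of both libraries at 0.06 and 0.054 FPKM.

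Past the oxidases, the bifunctional enzymes carry out the next reactions, and both were lower. Ehhadh, the bifunctional enzyme of straight-chain substrates (L-PBE), had 3.49 FPKM in the control pool and 1.27 FPKM in the csMed1-/- pool (log2 ratio -1.46). Hsd17b4, the bifunctional enzyme of branched-chain and very long chain substrates, was the more abundant of the pair and had 35.9 and 10.7 FPKM (-1.74). Its level was 10.3 times that of Ehhadh in control and 8.43 times in csMed1-/- heart. Both were past 2-fold, although Ehhadh, at its low level, came inside 2-fold (-0.98) when 1 FPKM was added to both values.

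The thiolases, which release acetyl-CoA or propionyl-CoA, were lower by less than 2-fold. Acaa1a had 80.2 and 42.6 FPKM (log2 ratio -0.91) and Acaa1b 22.5 and 13.1 FPKM (-0.78). Scp2, whose longer product is the thiolase of branched substrates and whose shorter product binds sterols, had 38.6 and 22.7 FPKM (-0.77). When ratios were centred among genes of like GC content, Acaa1a (-1.10) and Acaa1b (-1.12) passed 2-fold, and Acaa1a also did (-1.065) when they were centred among genes of like abundance. Acaa1a and Acaa1b are closely related genes, so the split between them is uncertain. Of the stretches of 50 bases, the length of the reads, in the longest Acaa1b transcript, 35.5% also occur in Acaa1a, and for Scp2 41.4% occur in the pseudogene Scp2-ps2.

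The auxiliary enzymes, which prepare unsaturated or branched acyl-CoA for the cycle, were all lower. Ech1, a dienoyl-CoA isomerase found in peroxisomes and mitochondria, was by far the most abundant gene described here, at 3256 FPKM in the control pool and 910.4 FPKM in the csMed1-/- pool (log2 ratio -1.84). It held 78.6% of the summed FPKM of the 22 enzymes in control and 69.1% in csMed1-/- heart. Without Ech1 the summed FPKM of the other enzymes was 883.9 in control and 406.4 in csMed1-/- heart (ratio 0.46), so the lower sum did not rest on Ech1 alone. Amacr, the racemase of branched-chain acyl-CoA, had 16.3 and 7.60 FPKM (-1.11). The dienoyl-CoA reductase Decr2 (11.9 and 8.27 FPKM, -0.52) and the enoyl-CoA reductase Pecr (9.97 and 5.85 FPKM, -0.77) stayed within 2-fold.

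Chain-shortened products leave the peroxisome as carnitine esters or as free acids, and the enzymes of these routes differed in opposite directions, both within 2-fold. Crot, the carnitine octanoyltransferase, had 2.17 FPKM in the control pool and 1.21 FPKM in the csMed1-/- pool (log2 ratio -0.84). Acot8, the thioesterase, had 16.4 and 22.5 FPKM (0.46), and it was the only PPAR-regulated enzyme of the 12 kept that was higher.

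Pathways with 2 listed enzymes each were uneven. In alpha-oxidation, which removes 1 carbon from phytanic acid, Phyh (phytanoyl-CoA hydroxylase) had 248.7 and 96.4 FPKM (log2 ratio -1.37) while Hacl1, the lyase of the next step, had 2.65 and 4.16 FPKM (0.65). Phyh stood 93.7 times above Hacl1 in control and 23.2 times above it in csMed1-/- heart. In ether lipid synthesis, Gnpat, which adds the first acyl chain to dihydroxyacetone phosphate, had 154.8 and 58.7 FPKM (-1.40), whereas Agps, which puts in the ether bond, was at 0.351 and 0.423 FPKM, too low for a ratio to be counted. In each pathway the abundant gene was lower. The scarce Hacl1 was higher within 2-fold, and the direction of Agps cannot be judged at its level. Of the Hacl1 stretches of 50 bases, 50.5% also occur in the overlapping gene Gm49387.

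Catalase and the membrane proteins of unknown or channel function were also lower. Cat, which breaks down hydrogen peroxide, had 86.0 FPKM in the control pool and 35.1 FPKM in the csMed1-/- pool (log2 ratio -1.29). Pxmp2, a channel protein of the peroxisomal membrane, had 104.8 and 32.2 FPKM (-1.70), and Pxmp4 had 30.3 and 22.5 FPKM (-0.43). Cat came just inside 2-fold (-0.99), and Amacr did too (-0.81), when ratios were centred among genes of like GC content.

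The peroxins divided by the step they serve. The pair of cargo receptors parted: Pex5, which binds proteins with a C-terminal targeting signal, had 19.0 FPKM in the control pool and 21.8 FPKM in the csMed1-/- pool (log2 ratio 0.20). Pex7, which binds the smaller group of proteins with an N-terminal signal, thiolase, Phyh and Agps among them, had 10.9 and 2.84 FPKM (-1.94), the lowest ratio among the 34 genes kept. Pex5 stood 1.74 times above Pex7 in control and 7.68 times above it in csMed1-/- heart. Pex5l, a Pex5 paralog that the symbol rule takes in but which acts on ion channels in neurons, was at 0.0586 and 0.0356 FPKM.

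The docking and membrane assembly peroxins were level or higher. Of the docking pair, Pex14 had 27.0 FPKM in the control pool and 43.7 FPKM in the csMed1-/- pool (log2 ratio 0.69) and Pex13 had 2.13 and 2.63 FPKM (0.31). Pex14 stands on 2 rows of the files that went opposite ways. The larger row had 25.6 and 43.2 FPKM (0.76) and the smaller 1.44 and 0.533 FPKM (-1.44). Of the genes that place membrane proteins, Pex16 had 31.9 and 63.5 FPKM (0.995, just short of 2-fold), Pex19, the most abundant peroxin, had 87.1 and 100.7 FPKM (0.21), and Pex3 had 4.29 and 4.71 FPKM (0.13). Pex16 passed 2-fold (1.07) when ratios were centred on the median of all genes.

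The receptor recycling peroxins named here were lower. Pex6, a subunit of the ATPase that extracts the receptors, had 37.97 and 17.7 FPKM (log2 ratio -1.10). Pex26, which anchors that ATPase to the membrane, had 5.40 and 3.58 FPKM (-0.59). Of the ubiquitin ligases that mark receptors for extraction, Pex10 had 18.2 and 9.27 FPKM (-0.98), just short of 2-fold and past it (-1.17) after the same centring by GC content. Pex2, another of these ligases, is listed under its older symbol Pxmp3, which the symbol rule misses, and was found after the values were seen. It had 6.29 and 2.38 FPKM (-1.40), and with it 5 of 16 peroxins were lower by more than 2-fold in place of 4 of 15.

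The Pex11 proteins elongate and divide peroxisomes, and Pex11a and Pex11c differed in opposite directions. Pex11a, the PPARα-inducible member of the family, had 6.47 and 2.50 FPKM (log2 ratio -1.37). Pex11c (Pex11g in current annotation) had 5.84 FPKM in the control pool and 9.57 FPKM in the csMed1-/- pool (0.71). Pex11a was thus the higher of the pair in control and the lower in csMed1-/- heart.

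The stretch around the start of transcription is shown for genes that moved apart or together: Pex11a and Pex11c, which differ in direction within a family, Ehhadh, and the receptor Pex7 with its cargo Phyh. Sequences are from RefSeq on GRCm38.p6, run 5′ to 3′ on the strand of the gene from 250 bases before to 50 bases after the annotated start, and capitals mark the hexamer AGGTCA, to which nuclear receptors bind, and the CCAAT box, on either strand. The AGGTCA hexamer can also stand as TGACCT and the CCAAT box as ATTGG, its reverse complement. In genome order the windows are chr2:4918746-4919045 (Phyh, plus strand), chr7:79743082-79743381 (Pex11a, minus), chr8:3467599-3467898 (Pex11c, minus), chr10:19907625-19907924 (Pex7, minus) and chr16:21787785-21788084 (Ehhadh, minus).
Pex11a: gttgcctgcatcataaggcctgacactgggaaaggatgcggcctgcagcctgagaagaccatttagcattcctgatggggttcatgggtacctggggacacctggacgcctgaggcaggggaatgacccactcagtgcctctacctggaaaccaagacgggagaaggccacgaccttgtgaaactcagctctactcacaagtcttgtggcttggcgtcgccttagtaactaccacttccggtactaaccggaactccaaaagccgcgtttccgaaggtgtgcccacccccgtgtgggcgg
Pex11c: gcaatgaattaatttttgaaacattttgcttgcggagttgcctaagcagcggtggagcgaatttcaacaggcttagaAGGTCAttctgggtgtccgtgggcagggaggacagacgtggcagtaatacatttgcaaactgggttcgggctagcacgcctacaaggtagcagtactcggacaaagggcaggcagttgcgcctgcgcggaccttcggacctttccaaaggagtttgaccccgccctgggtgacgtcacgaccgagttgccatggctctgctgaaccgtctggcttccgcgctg
Ehhadh: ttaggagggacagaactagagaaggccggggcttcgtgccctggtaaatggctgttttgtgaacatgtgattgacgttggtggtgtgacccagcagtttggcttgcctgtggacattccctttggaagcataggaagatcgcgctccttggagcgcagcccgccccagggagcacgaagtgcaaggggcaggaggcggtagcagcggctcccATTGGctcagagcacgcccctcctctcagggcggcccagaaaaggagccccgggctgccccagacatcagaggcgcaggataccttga
Pex7: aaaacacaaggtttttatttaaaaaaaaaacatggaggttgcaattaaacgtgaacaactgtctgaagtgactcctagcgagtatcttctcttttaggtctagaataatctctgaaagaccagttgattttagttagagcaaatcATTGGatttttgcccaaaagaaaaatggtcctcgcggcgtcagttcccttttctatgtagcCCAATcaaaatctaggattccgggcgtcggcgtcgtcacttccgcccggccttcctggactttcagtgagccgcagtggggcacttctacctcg
Phyh: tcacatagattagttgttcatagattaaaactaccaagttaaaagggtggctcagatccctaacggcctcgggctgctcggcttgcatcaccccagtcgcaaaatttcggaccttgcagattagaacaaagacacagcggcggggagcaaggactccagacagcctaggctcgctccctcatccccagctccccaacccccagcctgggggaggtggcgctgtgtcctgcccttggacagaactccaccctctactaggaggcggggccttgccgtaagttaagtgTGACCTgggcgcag

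The 38 genes had 34 such windows for 29 genes. The exact form searched for the PPAR response element was 2 AGGTCA hexamers 1 base apart (AGGTCANAGGTCA, both strands). It was in none of the 34 windows and in 0.0396% of all 32841 windows. The looser AGGNCANAGGNCA was in none of the 34 and in 0.381% of all. Both strings are so rare that their absence from 34 windows cannot tell these genes from others. Other variants of the element were not searched. A single AGGTCA, which the stricter element contains by its letters, was in 4 of the 34 windows (those of Cat, Pex11c, Phyh and Scp2) and in 16.3% of all windows. Of these 4 genes Cat, Phyh and Scp2 were lower and Pex11c was higher, and a link between the hexamer and direction was not tested. CCAAT was in 15 of the 34 windows, from 14 genes, and in 37.4% of all windows, and CACGTG in that of Gnpat alone and in 7.15% of all. More distant elements lie outside windows of this length.

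Other genes of the organelle were mostly lower as well. Of a further list of 39 peroxisomal genes, 38 were in the files and 25 were kept, of which 20 were lower, 7 by more than 2-fold and none higher by more than 2-fold (28% lower by more than 2-fold, against 18.0% of all genes), with a median log2 ratio of -0.73. That count depended on the scaling, with 4 of 25 lower by more than 2-fold when ratios were centred among genes of like GC content, and the median was -0.42 with 1 FPKM added to both values and -0.46 when centred among genes of like abundance. The lowest ratio was that of Gstk1, a glutathione transferase of mitochondria and peroxisomes, at 103.4 and 18.8 FPKM (-2.46). Crat, the carnitine acetyltransferase, had 609.5 and 254.7 FPKM (-1.26), and Eci2, an enoyl-CoA isomerase, had 150.4 and 65.6 FPKM (-1.20). Nudt7, a coenzyme A diphosphatase of peroxisomes, had 60.2 and 27.6 FPKM (-1.12), and Eci3, a relative of Eci2, had 10.9 and 4.51 FPKM (-1.28). The highest ratio was that of Tysnd1, the protease that trims imported enzymes, at 27.2 and 49.5 FPKM (0.86). The mitochondrial genes of a PPAR target list were lower still, 16 of 16 kept, with a median of -1.51 and 11 lower by more than 2-fold, against 53.2% of all genes lower at any size and 18.0% lower by more than 2-fold.

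The regulators of these enzymes were uneven as well. Ppara, which encodes PPARα, had 12.4 and 1.66 FPKM (log2 ratio -2.90), while Ppard had 32.7 and 27.0 FPKM (-0.28) and Pparg 5.64 and 4.02 FPKM (-0.49). Of the retinoid X receptors, with which PPARs pair, Rxrg had 71.7 and 14.0 FPKM (-2.36), Rxra had 36.4 and 24.0 FPKM (-0.60) and Rxrb 40.9 and 41.1 FPKM (0.01). The coactivators Ppargc1a (4.41 and 0.953 FPKM, -2.21) and Ppargc1b (4.87 and 1.76 FPKM, -1.47) were both lower by more than 2-fold, so 4 of the 8 regulators were lower by more than 2-fold, against 18.0% of all genes.

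**Figure D3:**
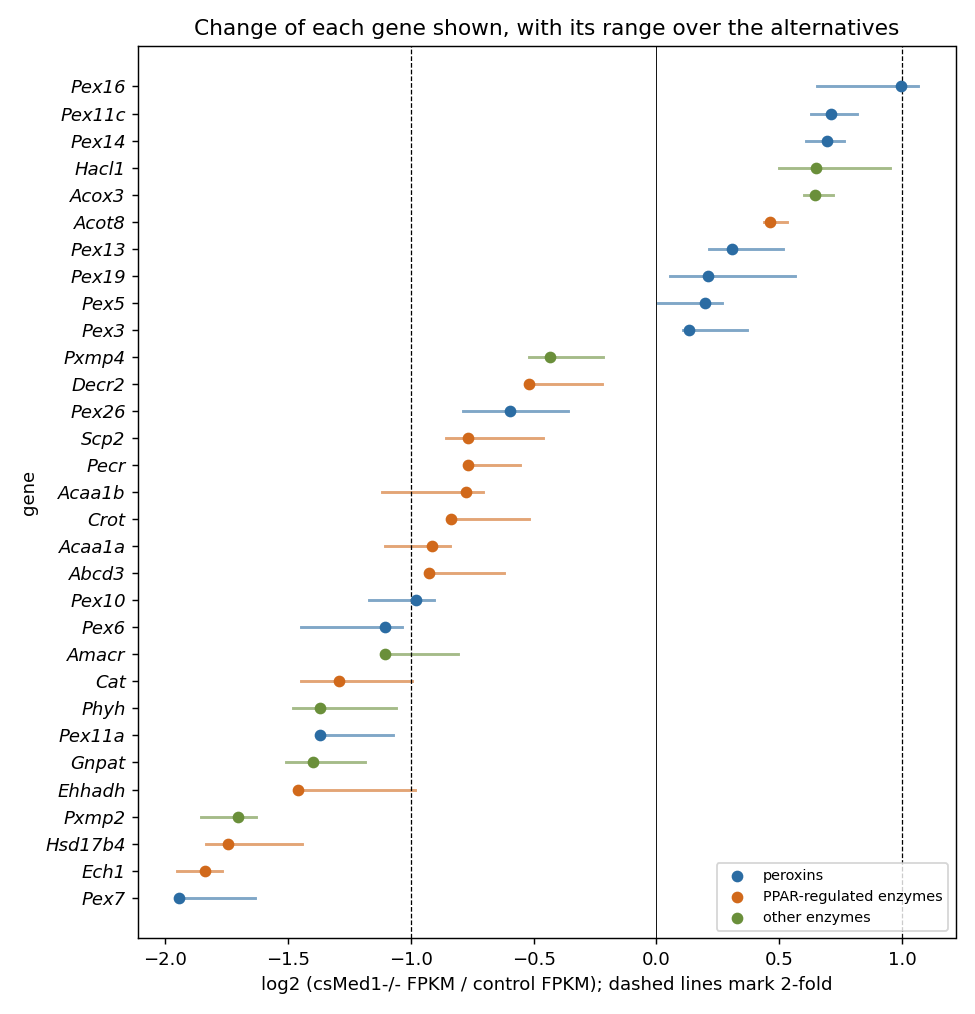
Log2 ratio of csMed1-/- to control FPKM for the genes kept and reported singly (points, coloured by group), with a bar from the lowest to the highest value over the alternative scalings, filters and pseudocounts, and dashed lines at 2-fold. The genes run from Pex7 at -1.94 to Pex16 at 0.995, and the bars of Ehhadh, Cat and Amacr reach inside 2-fold.

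On GRCm38 (GENCODE M21 annotation, the mm10 assembly) the 38 genes lie on 16 chromosomes, with Pex7 at chr10:19853900-19907689, Pex11a at chr7:79735957-79743131, Ech1 at chr7:28825217-28832247, Phyh at chr2:4919019-4938730 and Ehhadh at chr16:21761287-21787807. A coding gene on the opposite strand overlaps 10 of them, Acaa1a, Acaa1b, Acot8, Gnpat, Hacl1, Pex3, Pex13 and Pex16 among them. The libraries keep strand, but the sources used here do not say whether it was used in quantifying, so reads of the partner may be part of these values. Of the 38 genes, 28 share no stretch of 50 bases with another gene.

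Markers of cell types moved between the pools too, and their part in the results above was not tested. Of 10 cardiomyocyte markers 9 were in the files, and 7 of the 8 above 0 in both libraries were lower, 4 by more than 2-fold, their summed FPKM being 53028 in control and 31655 in csMed1-/- heart. Actc1, the cardiac actin, is listed at 0 in control and so was left out of that sum. All 8 fibroblast markers were found, of which 4 were higher by more than 2-fold and 3 were lower, 1 of these by more than 2-fold, with sums of 503.2 and 1193 FPKM. All 6 endothelial markers were lower (404.2 and 263.0 FPKM), while the 6 macrophage markers summed to 254.8 and 253.2 FPKM and the 4 smooth muscle markers to 604.5 and 1024 FPKM. The macrophage markers went both ways, with 3 lower, none of them by more than 2-fold, and 1 higher by more than 2-fold. Of the smooth muscle markers, 2 were higher by more than 2-fold and 2 were lower, 1 of these by more than 2-fold. The 4 hepatocyte markers summed to 9.04 and 2.23 FPKM, and of 6 adipocyte markers 5, Adipoq and Ucp1 among them, were listed at 0 in control, the other, Cidea, having 37.6 and 81.4 FPKM.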

How the data were processed

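Per the labels, polyadenylated heart RNA of 5 mice was pooled in each of 2 genotypes and sequenced from a directional 50-base library without read pairs. The authors used mm10 as genome, aligned with TopHat 2.0.8b and deposited FPKM for UCSC-annotated genes from Cufflinks and Cuffdiff 2.1.1, with 1 library per genotype. The processing notes also name STAR 2.4.0h, Bowtie2 and DESeq2 without a role, and which scaling between libraries was used is not given in the sources used here.

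From the deposited FPKM, rows sharing a symbol were summed (412 of 22882 symbols, 23424 rows), and plain ratios were taken without a pseudocount where neither value was 0 and the higher reached 1 FPKM. Counts used 2-fold. No test, SD or interval can be had from 1 library per genotype, so every comparison is a description of the 2 libraries. The rule for naming took the genes of the symbol rule, Med1, the PPAR regulators and, from other lists, genes past 2-fold that reached 10 FPKM or held the end of a list. The genes and lists were chosen with earlier results of these data known. Pxmp3 was added after its values were seen. Some genes entered the group counts and are not reported singly here. Promoters were searched on both strands. Alternatives covered pseudocount, filter, scaling, threshold, row choice and group make-up; GC bins and abundance bins were chosen after seeing the data. Depth was compared from steps among 2461 low rows. The scripts ran in Python 3.11.15 with numpy 2.4.6, pandas 2.3.3 and matplotlib 3.10.9, and the ratios and counts were tested on simulated data.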

Additional observations from a re-analysis of the deposited data

How the results depend on the processing

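No paired analysis was possible because each genotype is 1 pooled library, and for the same reason no replicate could be left out. No alternative reversed a ratio that was past 2-fold. The median log2 ratio stayed between -0.09 and 0.10 for the peroxins, between -0.91 and -0.76 for the PPAR-regulated enzymes and between -0.94 and -0.76 for their difference, and no rescaling moved the median of all genes by more than 0.07. Scalings that shift all genes equally could not have moved that difference. Among the alternative values of single genes, 352 kept their side of 2-fold, 5 newly passed it and 4 came inside it. Many of the 352 could not differ from the main value. A filter leaves the ratio of a gene as it was, and row choice altered only Pex14, so the count does not measure stability. Ehhadh (-0.98) was among those that came inside it with 1 FPKM added, as did Cat (-0.99) and Amacr (-0.81) within GC bins. Acaa1a (-1.10 in GC bins, -1.065 in abundance bins), Acaa1b (-1.12) and Pex10 (-1.17), the last pair in GC bins, passed it, as did Pex16 (1.07) after centring on the median. Of the genes kept, 2 changed sign under a scaling, neither past 2-fold. At 4-fold none of the peroxins, PPAR-regulated enzymes or other enzymes was lower (0 each, against 4 each at 2-fold) and 2 of the wider list were (against 7). At 1.5-fold 10 PPAR-regulated enzymes, 6 peroxins, 4 other enzymes and 14 genes of the wider list were lower, and 3 peroxins, 2 other enzymes and 2 genes of the wider list were higher. With 10 FPKM required in either library, 2 of 8 peroxins were lower, and after centring on the median 1 peroxin was higher. The median of the other enzymes was -0.43 with no filter and -0.81 in GC bins, against -1.11. The median of the wider list was -0.42 with 1 FPKM added and -0.46 in abundance bins, against -0.73, and its counts were 11 lower and 2 higher with no filter and 4 lower in GC bins. The cause of these shifts was not tested. Depth limits the genes under about 3 FPKM most, such as Crot and Hacl1, whose error cannot be estimated from 1 library.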
